A study of Mus musculus with 12 samples.

Results

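Adam10 and Adam17 encode the membrane-bound ADAM metalloproteases that shed the extracellular parts of other membrane proteins, and both were followed across mouse kidney development. They were chosen by gene symbol and are 2 of the 118 genes on a Notch-pathway oligonucleotide membrane array, with 1 spot each. Their RefSeq gene IDs are 11487 (Adam10) and 11491 (Adam17). Total RNA of mouse embryonic kidney, with no treatment named, was measured on 12 arrays of 5 stages: embryonic days 12 (E12, 3 arrays), 13 (E13, 3 arrays), 14 (E14, 2 arrays), 16 (E16, 2 arrays) and 18 (E18, 2 arrays). The sources used here gave neither strain nor genotype, nor how many embryos went into an RNA sample. The labels call the arrays of a stage technical replicates, so p-values that compare arrays measured the spread between arrays and not between embryos.

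A Notch receptor bound by a ligand on a neighbouring cell is first cut outside the membrane by an ADAM protease and is then cut inside the membrane by gamma-secretase, which frees the intracellular domain to act in the nucleus. ADAM10 is the protease best known for the ligand-dependent cut of Notch. ADAM17, also called TACE, is best known for releasing tumour necrosis factor and several ligands of the epidermal growth factor receptor. In the developing kidney, Notch signalling takes part in the patterning of nephrons, including the proximal tubule and the podocytes.

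The median gene signal was 4318.5 to 9617 per array, which was 2.69 to 7.93 times the mean of the array's 6 negative-control spots. A gene counted as above background where its signal exceeded that mean by more than 2 SD, and 94 to 112 genes did so per array. The tests took the 106 genes that passed this threshold on all arrays of some stage, Adam10 and Adam17 among them. The 3 arrays with the highest negative controls were the number 1 arrays of E18 (mean 3495), E13 (2985) and E16 (2324). None of 12 kidney marker genes listed for a check of the tissue label was on the array, so the label could not be checked this way.

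Adam17 gave a strong signal at every stage. Its deposited signal was 19327, 18083 and 32792 on the 3 E12 arrays, 22037, 25911 and 36457 on the 3 E13 arrays, and 19420 and 31218 at E14. It was 22206 and 26848 at E16 and 20284 and 30675 at E18. The arrays of a stage thus differed as widely as the stages did, and each stage overlapped every other. Adam17 lay 5.24 to 32.1 times above the background threshold of its array.

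Adam10 lay close to background. Its deposited signal was 1506, 2051 and 2433 at E12, 3544, 1922 and 2432 at E13, and 2677 and 1803 at E14. It was 4383 and 2367 at E16 and 4563 and 2741 at E18. It passed the background threshold on 12 of 12 arrays, but by a factor of 1.01 to 2.14. The narrowest margins were 1.01 on E12 replicate 1, 1.07 on E12 replicate 2, 1.07 on E13 replicate 1 and 1.18 on E18 replicate 1. On those 4 arrays the level of Adam10 was poorly separated from the negative controls. The highest raw signals of Adam10, on E18 replicate 1 and E16 replicate 1, came from arrays with high negative controls, so raw signals of Adam10 cannot be read across arrays without a background correction.

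**Figure D1:**
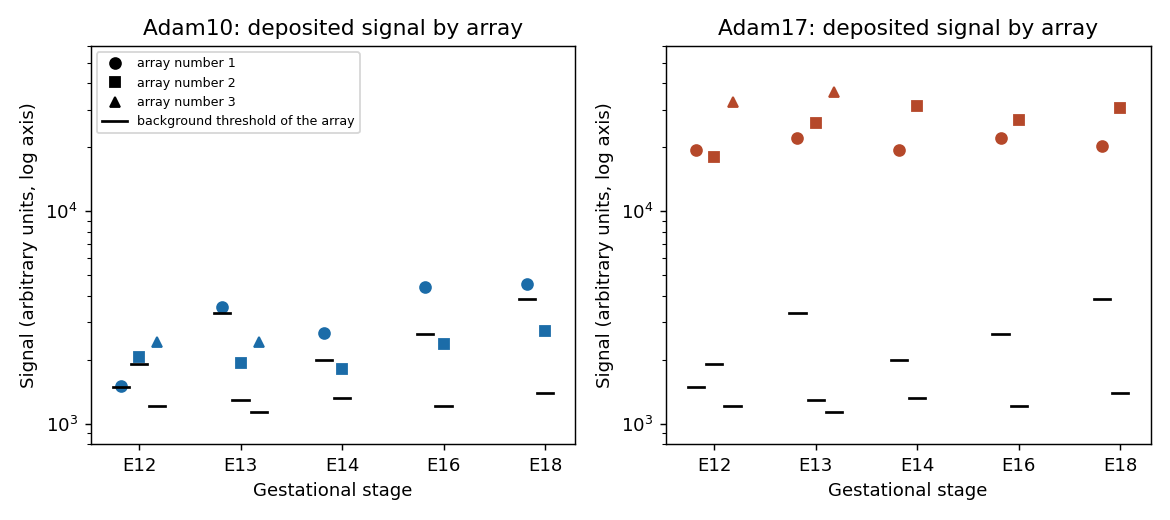
Deposited signal of Adam10 (left) and Adam17 (right) on each of the 12 arrays by gestational stage, on a log axis in arbitrary units, with marker shapes for the array number and a black bar for the background threshold of each array. Adam17 stands 5.24 to 32.1 times above the bars, while Adam10 sits at 1.01 to 2.14 times.

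After background correction by the normexp model and quantile normalization over the gene spots, Adam17 was nearly level across stages. The normalized log2 signal of Adam17 was 14.54, 14.43 and 14.68 at E12, 14.41, 14.46 and 14.68 at E13, 14.50 and 14.59 at E14, 14.66 and 14.38 at E16, and 14.38 and 14.54 at E18. All 5 stages overlapped. The stage means ran from 14.46 ± 0.11 (SD, n = 2) at E18 to 14.55 ± 0.13 (SD, n = 3) at E12, a range of 0.09 log2 units. That range was smaller than the spread between arrays of a stage (SD 0.14). Of the 106 genes tested, only 3 had a narrower range of stage means than Adam17, which was in position 103 from the widest, and the median range was 0.62. From the brightest gene down, Adam17 held positions 15 to 24 on the arrays. Quantile normalization sets a value by its rank on the array, so the narrow range and its position among genes hold for this normalization. With housekeeping scaling, the E12 arrays of Adam17 ran from 14.32 (replicate 2) to 14.89 (replicate 3).

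The normalized log2 signal of Adam10 was 9.38, 10.23 and 11.10 at E12, 9.70, 11.10 and 11.21 at E13, 10.66 and 10.73 at E14, 11.45 and 10.91 at E16, and 10.39 and 11.06 at E18. In order, the stage means were 10.23 ± 0.86 (SD, n = 3) at E12, 10.67 ± 0.84 (SD, n = 3) at E13, 10.69 ± 0.05 (SD, n = 2) at E14, 10.73 ± 0.47 (SD, n = 2) at E18 and 11.18 ± 0.38 (SD, n = 2) at E16. They spanned 0.95 log2 units, the 19th widest range of 106 genes, against a median of 0.62. The limma F test over the 5 stages gave an unadjusted p of 0.603. Single arrays of a stage had an SD of 0.68, which is not the same measure as a range of means. No neighbours in the order of stage means differed by more than that SD. The spread of Adam10 between arrays was the 14th widest of 106 genes, against a median SD of 0.36. The low values of the early stages were those of E12 replicates 1 and 2 and E13 replicate 1, where the margin over background was narrow. The other early arrays, E12 replicate 3 and E13 replicates 2 and 3 (11.10 to 11.21), lay within the range of the late ones (10.39 to 11.45).

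**Figure D2:**
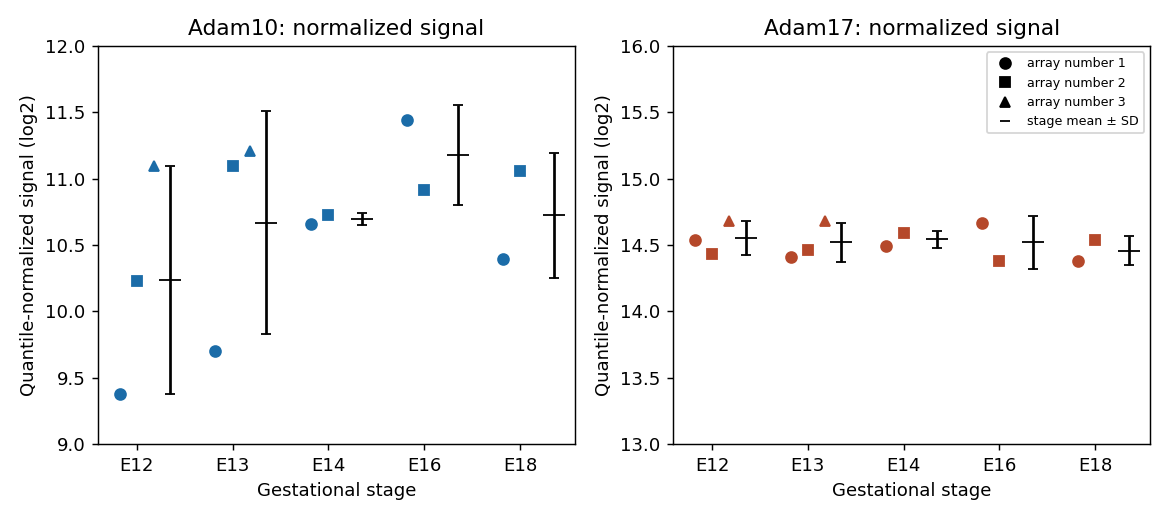
Quantile-normalized log2 signal of Adam10 (left) and Adam17 (right) on each array by stage, with the stage mean ± SD in black beside the points; both panels span 3 log2 units. Stage means of Adam17 lie within 0.09 log2 units of each other, and those of Adam10 run from 10.23 at E12 to 11.18 at E16 with wide overlap.

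Neither sheddase passed a test of change over development. The limma F test over the 5 stages gave an adjusted p of 0.94 for Adam10 and 0.991 for Adam17, where 1 of 106 genes passed (0.943%). Between successive stages, Adam10 differed by 0.43 (SE 0.51) from E12 to E13, 0.03 (SE 0.57) from E13 to E14, 0.49 (SE 0.62) from E14 to E16 and -0.45 (SE 0.62) from E16 to E18 on the log2 scale, with limma adjusted p of 0.867 to 1. Adam17 differed by -0.03 (SE 0.13), 0.02 (SE 0.15), -0.02 (SE 0.16) and -0.06 (SE 0.16) over the same steps, with limma adjusted p of 0.934 to 1. The share of all genes past the threshold in these 4 steps was 0%, 0%, 0.943% and 0%, while 5, 6, 8 and 4 genes had an unadjusted p under 0.05.

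From E12 to E18, Adam10 differed by 0.49 log2 units (SE 0.57, limma adjusted p = 0.811) and Adam17 by -0.09 (SE 0.15, limma adjusted p = 0.855), where 2 of 106 genes passed (1.89%). The 95% interval of the fold was 0.577 to 3.42 for Adam10 and 0.745 to 1.18 for Adam17 on quantile-normalized values. The SEs were closer to each other with no normalization (0.465 for Adam10 and 0.455 for Adam17) and with the deposited ratios (0.322 and 0.295). The value of Adam10 moved widely with the processing, from 0.0024 with array medians to 1.18 with negative-control background, and was 0.063 without E12 replicate 1, 0.158 without E18 replicate 2 and 0.93 without E12 replicate 3. That of Adam17 moved as well, from -0.61 with array medians (limma adjusted p = 0.498) to 0.07 with no normalization. With array medians the median over all genes was -0.44. With each stage as 1 value, Adam10 had a daily slope of 0.09 on the log2 scale (SE 0.05, adjusted p = 0.522 by limma) and Adam17 one of -0.01 (SE 0.02, adjusted p = 0.812 by limma), where 2 of 106 genes passed (1.89%). In the order of unadjusted p over the 106 genes, these slopes stood 33rd and 64th. With array medians the slope of Adam17 was -0.096 (limma adjusted p = 0.203).

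The late stages (E16 and E18) were then set against the early ones (E12 and E13), again with the stage as the unit. The mean of the stage means of Adam10 was 10.45 early, 10.69 at E14 and 10.95 late, a difference of 0.50 log2 units (SE 0.24, limma adjusted p = 0.366, unadjusted p = 0.104), or 1.41-fold with a 95% interval of 0.895 to 2.24. It was 0.29 without E12 replicate 1 and 0.33 without E18 replicate 2. Over all omissions of 1 array it ran from 0.25 without E13 replicate 1 to 0.72 without E12 replicate 3. The mean of the stage means of Adam17 was 14.54 early, 14.54 at E14 and 14.49 late, a difference of -0.05 (SE 0.11, limma adjusted p = 0.869), or 0.969-fold with a 95% interval of 0.79 to 1.19. Neither passed, where 2 of 106 genes did (1.89%). In size, the difference of Adam10 was the 18th of 106 and that of Adam17 the 90th, and the median size over all genes was 0.17. In whole-kidney RNA, fewer cells of a type and less RNA per cell cannot be told apart.

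Within the arrays of 1 number, the late minus early difference of Adam10 was 1.38 log2 units over the number 1 arrays (9.54 early, 10.92 late) and 0.32 over the number 2 arrays (10.66 early, 10.99 late), each with 2 arrays a side and no test. For Adam17 the same differences were 0.05 and 0.01. Among the number 1 arrays, the mean negative control was 2042 early and 2910 late, and among the number 2 arrays it was 1315 early and 943 late. The part of the background in these differences was not tested, and Adam10 was 1.01 and 1.07 times its threshold on the early number 1 arrays. Number 3 arrays existed at E12 and E13 only. With those arrays left out, an alternative added with the values in view, the difference of Adam10 was 0.88 (limma adjusted p = 0.288) and that of Adam17 was 0.03 (limma adjusted p = 0.941). The difference of Adam10 was 0.27 (limma adjusted p = 0.7) once the number 1 arrays of E13, E16 and E18, the highest in background, were set aside. With array medians the median late minus early difference of all genes was -0.27, and relative to it Adam10 was at 0.56 and Adam17 at -0.14, beside 0.46 and -0.09 on quantile-normalized values.

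**Figure D3:**
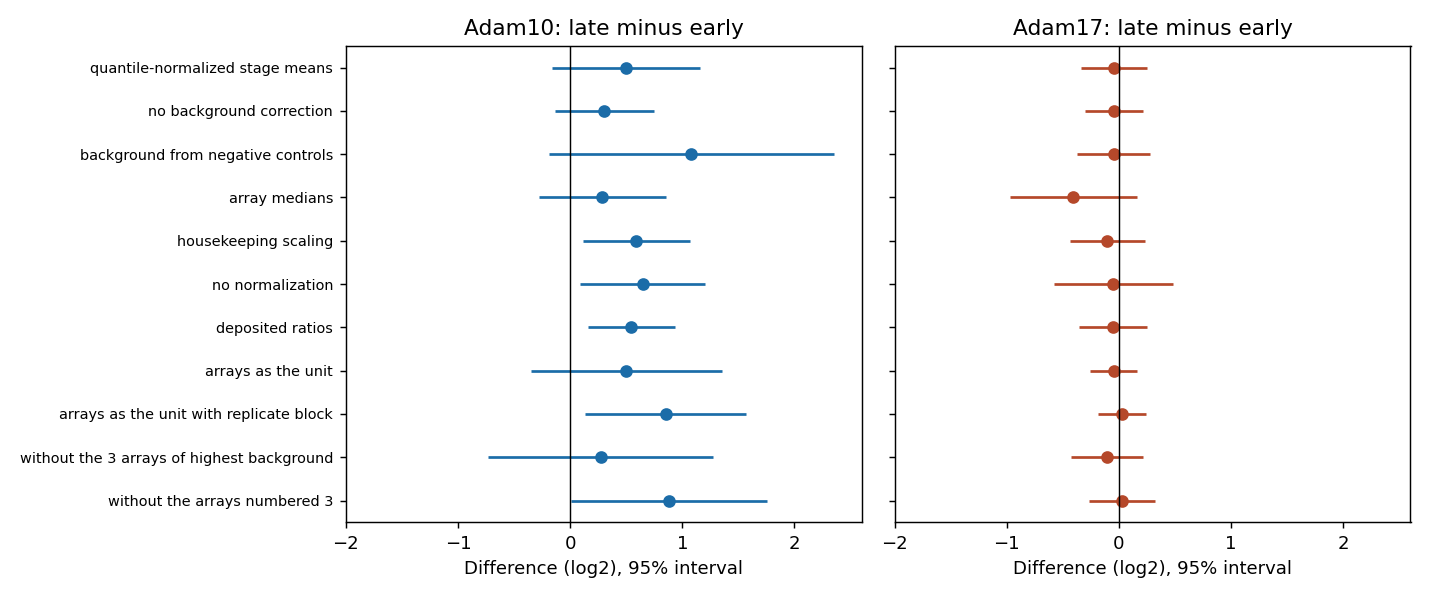
Late (E16, E18) minus early (E12, E13) difference of Adam10 (left) and Adam17 (right) on the log2 scale, as points with 95% intervals not adjusted for the number of genes, under the main and 10 other ways of processing the arrays. Adam10 lies above 0 in each of them, from 0.27 to 1.08, and Adam17 lies from -0.41 to 0.03.

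Genes listed as markers of other cell types were read beside these values, as raw signals over Ppia without background correction, which the high-background arrays can raise. The summed signal of 6 keratinocyte markers (Krt1, Krt5, Krt10, Krt14, Lor and Ivl) was 1.22 to 1.44 times the Ppia signal at E12, 0.883 to 1.63 at E13, 0.906 to 1.24 at E14, 0.76 to 0.843 at E16 and 0.93 to 1.29 at E18. That of the 4 blood-lineage markers on the array (Lmo2, Pax5, Ptcra and Ifng) was 0.693 to 0.88 at E12, 0.783 to 1.11 at E13, 0.848 to 0.939 at E14, 0.869 to 0.917 at E16 and 0.936 to 1.08 at E18. E13 thus spanned E14, E16 and E18 and overlapped E12, which held the lowest value. Figf, the 1 gene of the endothelial list on the array, encodes a growth factor and is no measure of endothelial cells by itself. Its signal over Ppia was 0.39 to 0.52 at E12, 0.368 to 0.516 at E13, 0.4 to 0.633 at E14, 0.537 to 0.596 at E16 and 0.527 to 0.649 at E18. By limma, 0 of 4 blood-lineage genes passed from E12 to E18, in the trend or late against early, and Figf did not pass. The share of all genes was 1.89% in each, so these counts are no result about the genes. Of the 6 keratinocyte genes, Krt1 passed from E12 to E18 and Lor late against early, both lower at the later stages. The call of Krt1 was lost where no gene passed, as with the array number as a block, no normalization or the deposited ratios. That of Lor was lost with negative-control background, where no gene passed. The part of these marker lists in the values of Adam10 was not tested.

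Whether both sheddases changed alike was asked within each array, by the log2 signal of Adam10 minus that of Adam17. The size of this difference depends on 2 different probes and is no measure of relative abundance, but its change between stages compares the changes in signal of both genes. Adam10 lay near background, so the background of an array can move the difference as well. That part was not tested. On quantile-normalized values it was -5.16, -4.20, -3.59 at E12, -4.71, -3.37, -3.48 at E13, -3.83 and -3.86 at E14, -3.22 and -3.47 at E16, and -3.99 and -3.48 at E18. Late arrays overlapped early ones. The mean was -4.08 ± 0.73 (SD, n = 6) early and -3.54 ± 0.32 (SD, n = 4) late, a difference of 0.55 (exact permutation test, 2-sided p = 0.205).

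That call depended on the normalization. A scaling that shifts all genes of an array alike leaves this difference untouched, so it was the same with array medians, with housekeeping genes and with no normalization. Background-corrected in the same way but not quantile-normalized, it was -4.43, -4.05 and -3.93 at E12, -4.20, -4.03 and -4.02 at E13, -3.64 and -4.27 at E14, -2.93 and -3.69 at E16, and -3.42 and -3.63 at E18. All 4 late arrays lay above all 6 early arrays, and of the E14 arrays replicate 1 was above every early array and replicate 2 lay among them. The mean was -4.11 ± 0.18 (SD, n = 6) early and -3.42 ± 0.35 (SD, n = 4) late, a difference of 0.69 log2 units or 1.62-fold between these arrays (exact permutation test, 2-sided unadjusted p = 0.00476, the smallest that 210 arrangements of 10 arrays can give). On 3 of the 6 early arrays Adam10 was only 1.01 to 1.07 times its background threshold, so the size of the fold is uncertain. The authors' deposited ratios gave 0.60 (exact permutation test, 2-sided unadjusted p = 0.00476) with early arrays from -4.06 to -3.77 and late arrays from -3.55 to -2.81. These tests take arrays of a stage as separate samples. With the stage as the unit, 2 stages against 2 cannot give a p below 0.333.

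The difference relative to Adam17 was set against the same measure for every other tested gene, a comparison added after the values were seen. With no normalization, 2 of 105 genes (1.9%), Adam10 and Figf, a growth factor of the vascular endothelial family, had all late arrays above all early arrays relative to Adam17. In the other direction, 3 genes had all late arrays below all early arrays. The median over the 105 genes was 0.14, and Adam10 was the 8th from the top. After Benjamini-Hochberg adjustment over the 105 genes, the exact permutation p of Adam10 was 0.125, so it did not pass, and neither did any other gene, although 10 had an unadjusted p under 0.05. With the deposited ratios the same 2 genes separated upward, of 101 with a ratio on every array used (1.98%), and 3 separated downward. The adjusted exact permutation p of Adam10 was 0.12. On quantile-normalized values 2 of 105 genes separated upward (1.9%), Figf and Gbp2, and 5 downward. Adam10 was not among them (adjusted exact permutation p = 0.628).

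Background handling mattered as well. With the mean negative control subtracted and no normalization, late arrays (-4.11 to -3.24) lay above early arrays (-5.32 to -4.35). The difference was 0.97 (exact permutation test, 2-sided unadjusted p = 0.00952). How many other genes separated in this way was not counted for this setting, and the p was not adjusted over genes. With neither background correction nor normalization, early arrays (-3.88 to -2.62) and late arrays (-3.48 to -2.14) overlapped, with a difference of 0.60 (exact permutation test, 2-sided p = 0.157). With 1 early or late array left out at a time, the difference was 0.53 to 0.79 with no normalization. On quantile-normalized values it was 0.33 to 0.70, with the lowest value without E12 replicate 1, and the 2-sided exact permutation p was 0.135 to 0.369.

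**Figure D4:**
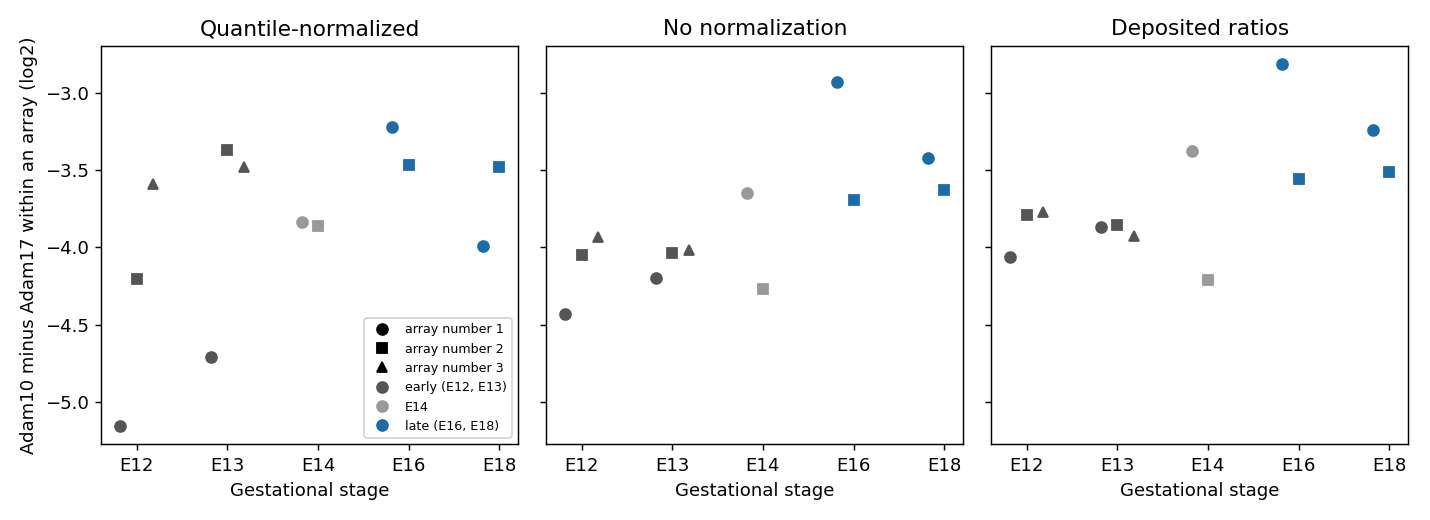
Log2 signal of Adam10 minus that of Adam17 within each array, by stage, for quantile-normalized values, values with no normalization and the deposited ratios; marker shapes give the array number and colours the period. Late arrays overlap early ones on the left (difference 0.55) and lie above all early arrays in the other panels (differences 0.69 and 0.60).

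In the deposited ratios, which the authors set relative to Ppia on each array, Adam10 was at 0.0425 ± 0.015 (SD, n = 3) at E12, 0.0427 ± 0.0054 (SD, n = 3) at E13, 0.0431 ± 0.0055 (SD, n = 2) at E14, 0.0689 ± 0.026 (SD, n = 2) at E16 and 0.0561 ± 0.0044 (SD, n = 2) at E18. The E16 mean rests on replicate 1, at 0.0872, while replicate 2 was at 0.0507, below the highest E12 array at 0.0592. On these ratios the late minus early difference of Adam10 was 0.55 log2 units with an unadjusted 95% interval of 0.16 to 0.93 (limma adjusted p = 0.164), so it did not pass. Adam17 was at 0.615 ± 0.17 (SD, n = 3), 0.632 ± 0.096 (SD, n = 3), 0.606 ± 0.17 (SD, n = 2), 0.603 ± 0.012 (SD, n = 2) and 0.588 ± 0.12 (SD, n = 2) from E12 to E18. The 2 arrays of E16 gave nearly the same ratio for Adam17, 0.612 and 0.595.

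The gamma-secretase genes act after the sheddases. From E12 to E18, in the trend and late against early, 0 of 5 subunits passed, where 1.89% of all genes did in each, so a count of 0 is no result about these subunits. Their median difference from E12 to E18 was 0.06, beside 0.02 over all 106 genes. Slopes were 0.08 log2 units per day (SE 0.05) for Psen2, a catalytic presenilin, 0.01 (SE 0.03) for Aph1a, a scaffold subunit, -0.001 (SE 0.02) for Psenen, which activates the complex, and -0.003 (SE 0.02) for Ncstn, the substrate-docking subunit nicastrin. No other ADAM gene and no Timp gene, which encode inhibitors of these proteases, was on the array.

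Among proteins that ADAM proteases cut, 0 of 4 Notch receptors passed in any of the 3 comparisons, beside 1.89% of all genes in each. Their median difference from E12 to E18 was 0.28, and their slopes were 0.10 (SE 0.03, limma adjusted p = 0.193) for Notch1, 0.05 (SE 0.05) for Notch2, 0.02 (SE 0.03) for Notch4 and 0.004 (SE 0.04) for Notch3. Of the 5 ligands, Jag1 was higher at E18 than at E12 (0.85, SE 0.17, limma adjusted p = 0.0476). That call was lost wherever no gene passed, which was so under the replicate block, with no normalization, with the deposited ratios and in most omissions of 1 array. None of the 5 passed in the trend or late against early. In each of the 3 comparisons 1.89% of all genes passed. Late minus early, Jag1 differed by 0.50 (SE 0.30), Dll1 by 0.48 (SE 0.16), Jag2 by 0.34 (SE 0.40) and Dll4 by 0.27 (SE 0.15), while the value of Dll3 was -0.15 (SE 0.30). Jag2 was above background on 6 of 12 arrays. A short list of known substrates of ADAM10 or ADAM17 (Notch1, Notch2, Dll1, Jag1 and Cd44) had 4 tested members, since Cd44 did not pass the background filter. Their median late minus early difference was 0.46, beside 0.04 over all genes, and 0 of 4 passed, beside 1.89% of all genes.

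**Figure D5:**
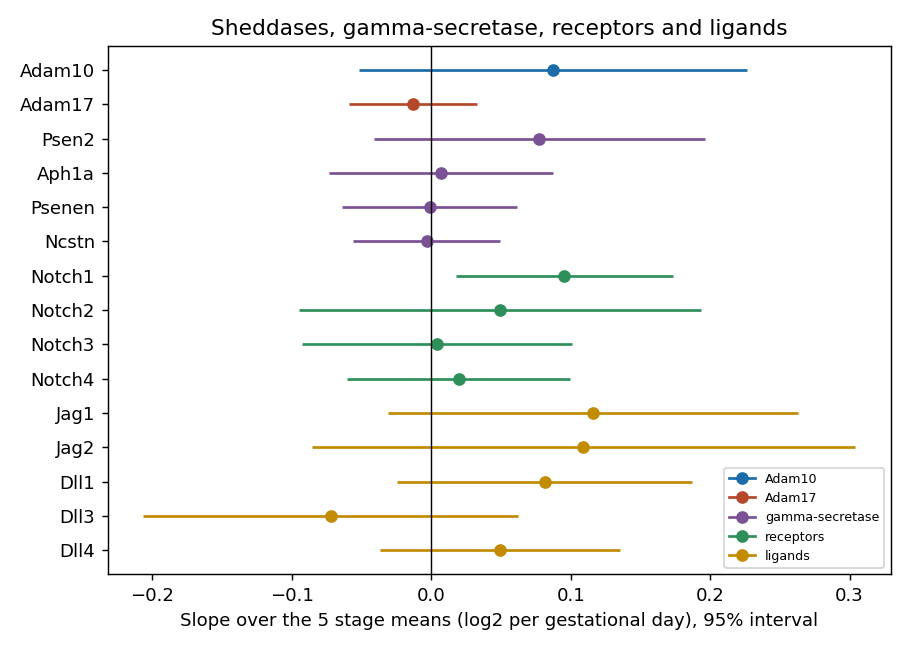
Slope over the 5 stage means in log2 units per gestational day, with 95% intervals not adjusted for the number of genes, for Adam10, Adam17, 4 of the 5 gamma-secretase subunits, the Notch receptors and the ligands. The interval of Adam17 (slope -0.01) is among the narrow ones, and that of Adam10 (slope 0.09) includes 0.

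The genes whose values over the 12 arrays were most like those of Adam10 were Erbb2 (Pearson's r = 0.713), a receptor tyrosine kinase, Fosl1 (r = 0.702), a transcription factor of the AP-1 family, and Chuk (r = 0.635), a kinase of the NF-kB pathway. Over the 5 stage means, r was 0.771, 0.679 and 0.856. Erbb2 was above background on 9 of 12 arrays and Fosl1 on 11, so most of this group is dim, as Adam10 is. Those most like Adam17 were the ligands Dll3 (r = 0.733) and Dll4 (r = 0.711), and Fosl1 (r = 0.707), with r of 0.874, -0.41 and -0.078 over the 5 stage means. Adam10 and Adam17 had an r of 0.491 with each other over the 12 arrays and -0.309 over the stage means, which placed Adam17 9th of 105 genes for Adam10 and Adam10 13th of 105 for Adam17. These coefficients are descriptions over arrays that share their normalization.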

How the data were processed

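TRIzol-isolated RNA was amplified with a biotin label, per the labels' protocols, and detection was chemiluminescent, per the series' design text. Each array's deposited intensities were whole numbers, 1 for every spot. Negative controls lay well above 0, while the lowest spot of an array was at 32 to 2698. Whether a background had been subtracted cannot be told from these values, and the sources used here name no image software. The authors also deposited 1 ratio for each gene and array: from the values, the signal minus the array's lowest spot over that of Ppia (119 of 119 gene ratios per array matched within 1e-06). It leaves the lowest spot empty, and its column medians ran from 0.0874 to 0.194. The design named foreground and background columns as a possibility, and the files had a single signal.

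Signals of all 128 spots were corrected by normexp (offset 50), transformed to log2 and quantile-normalized across the 120 gene spots, with duplicate spots averaged. limma 3.58.1 in R 4.3.3 fitted 1 mean per stage over the 12 arrays (7 residual and 1.72 prior degrees of freedom), and the trend and the late minus early difference were fitted by limma to the 5 stage means. p-values were 2-sided and adjusted by Benjamini-Hochberg over 106 genes, with a threshold of 0.05. The fits were tested on simulated data with independent noise for each gene and no array or background effects. That test does not show what size of change these arrays could detect. The number of arrays limits the precision. Gene names are the array's, and both accessions matched RefSeq's table of GRCm38.p6. Genes named were both sheddases, the pathway lists, and the 3 tested genes with the highest r with each sheddase. Members and lists were chosen with earlier results of these data known. The values of 1 gamma-secretase subunit are not reported here. Between E12 and E13, the 3 same-numbered pairs deviated from their stage means with r of 0.122 to 0.222, over 0.1 in each, a pairing seen in the data that no label states. The main fit and the permutation tests did not use the array number, and a fit with it as a block was an alternative. Over all 21 same-numbered pairs, 8 had an r over 0.1.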

Additional observations from a re-analysis of the deposited data

How the results depend on the processing

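Neither sheddase passed a limma test under any alternative run. The late minus early difference of Adam10 stayed above 0 in each of them. Of the results on both sheddases, only the within-array difference changed its side of the threshold, by the unadjusted exact permutation p alone: it passed at 0.69 with array medians, housekeeping scaling or no normalization, at 0.60 with the deposited ratios and at 0.97 with subtracted negative controls and no normalization. With no normalization or the deposited ratios it did not pass after adjustment over all genes compared in this way. For subtracted negative controls no such adjustment was made. The cause was not tested.

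Directions turned in 34 of 412 values, 7 of Adam10 and 27 of Adam17, all of them uncalled. The 412 include 23 F-test values of each gene, which have no direction. From E13 to E14, Adam10 was -0.021 without background correction, -0.155 with array medians, -0.0195 with no normalization and -0.474 without the 3 arrays of highest background, where its step from E16 to E18 was 0.139. For Adam17, array medians gave 0.0332, -0.28 and 0.0777 for the first 3 steps, housekeeping scaling 0.109, -0.107 and 0.0039, and the deposited ratios 0.0618, -0.0775 and 0.0217. No normalization gave Adam17 0.269 and -0.145 for the first 2 steps and 0.0748 from E12 to E18. Without the 3 arrays of highest background it was 0.0257, -0.0348 and, from E16 to E18, 0.154. Its late minus early difference was 0.0275 without the number 3 arrays.

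With the array number as a replicate block, Adam10 differed by 0.84 from E12 to E18 (limma adjusted p = 0.413) and, with arrays as the unit, by 0.85 late against early (limma adjusted p = 0.198), where Adam17 was at 0.0293. The block changed no call of either gene.

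Counts over all genes were unstable. From E12 to E18, 0 genes passed under the block, with the deposited ratios, without the filter, with housekeeping scaling or no normalization, in either left-out set of arrays or in a fit of those 2 stages alone, 1 with array medians and 4 with a prior that followed the signal. The F test called 0 under the block, housekeeping scaling, no normalization, the ratios and either left-out set, 2 with medians and 6 with that prior. The trend called 12 with that prior, 9 with arrays as the unit, and 0 without either set of arrays or any 1 stage. Late against early, 6 genes passed with medians, 8 with arrays as the unit, 4 with the block added, 1 with housekeeping scaling, no normalization, the ratios or no filter, and 0 with negative-control background or without the 3 arrays of highest background.

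Leaving out 1 array at a time gave -0.46 to 0.31 for Adam10 from E13 to E14. For Adam17 it gave -0.114 to 0.0357, -0.034 to 0.105, -0.159 to 0.123 and -0.209 to 0.0747 over the 4 steps and -0.114 to 0.0251 late against early. It gave 0.063 to 0.93 for Adam10 from E12 to E18, 0.25 to 0.72 for Adam10 late against early, 0.33 to 0.70 for the within-array difference, and counts of 0 to 7 from E12 to E18, 0 to 3 by the F test, 0 to 3 in the trend and 0 to 2 late against early. Depth of signal limits Adam10, whose signal was at most 2.14 times its background threshold.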
